A study of Mus musculus with 12 samples.

Results

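The genes described here are 7 stimulus-responsive transcription factor genes: Fos, Fosb, Jun and Junb, which encode subunits of activator protein 1 (AP-1), and Atf3, Nr4a1 and Egr1, which are induced with them in many cell types. They were taken by symbol through the NCBI Gene ID of each row, and 7 of 7 were among the 9374 genes of the deposited expression table. Expression was measured by RNA sequencing of neutrophils, short-lived phagocytes of the blood, from female mice. The KO-LPS and KO-Saline groups came from Hmgb1ΔMye mice, called KO in the labels, given lipopolysaccharide (LPS, a bacterial outer membrane component) at 0.5 mg/kg or saline. The WT-LPS and WT-Saline groups came from wild-type mice given the same agents, and cells of all 4 groups were isolated 16 hours later. Each group had 3 libraries. Nothing in the labels states that each came from its own mouse, so the p-values reflect the scatter among these libraries, part or all of which may be technical. ΔMye denotes loss of the gene in myeloid cells. The sources used here do not give the Cre line behind it, the ages of the mice or the method of isolation.

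FOS and JUN proteins are basic leucine zipper (bZIP) factors. They pair through the zipper and bind a short palindromic DNA element, and FOS proteins need a JUN partner to do so. Their genes are immediate-early genes: signals reaching them through MAP kinases, serum response factor and CREB switch on transcription before any new protein is made, and both the transcripts and the proteins are unstable. ATF3 is a stress-induced bZIP factor that can pair with JUN proteins, NR4A1 (Nur77) is an orphan nuclear receptor, and EGR1 is a zinc finger factor that binds GC-rich elements. In myeloid cells, Toll-like receptor signals are known to induce this group early, and AP-1 acts with NF-kB on inflammatory genes.

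Reads in the table ran from 399702 to 526757 per library, and a floor of 3 reads came to 5.6 to 8.0 CPM (CPM being reads scaled to a common library size), so low genes were measured with few reads. The mature neutrophil markers S100a9, Csf3r and S100a8 ranked 11, 14 and 24 by mean reads. Hmgb1 was not lower in the KO libraries, with 52 reads in KO-LPS, 49 in KO-Saline, 63 in WT-LPS and 37 in WT-Saline. Reads over the whole gene do not check the deletion, so KO stands for the library label throughout and no direction between genotypes has other support. KO-LPS replicate 1 stood apart from its group. On a scale where 1 is the WT-LPS mean and 0 the WT-Saline mean of the 1090 other genes that changed in WT, it lay at 0.33, against 0.95 and 0.93 for KO-LPS replicates 2 and 3, while KO-Saline lay at 0.25, 0.17 and 0.15. The genes and both ends of this scale come from the WT libraries themselves. Libraries of other groups are thereby drawn inward from 0 and 1, so the scale does not measure a difference between genotypes. Values that change much with it are given with and without it. How strand was set in the read counting is not stated in the sources used here. Of 230 long non-coding RNAs lying across from a measured coding gene, 168 (73.0%, exact 95% interval 66.8% to 78.7%) outnumbered it in reads. Whether reads were assigned to the opposite strand, which would affect the value of any gene here, was not tested.

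By mm10 coordinates, Fos lies on the plus strand of chromosome 12 (85473890 to 85477273) and Nr4a1 on the plus strand of chromosome 15 (101254269 to 101274795). On the minus strand are Fosb on chromosome 7 (19302696 to 19310051), Jun on chromosome 4 (95049034 to 95052222), Junb on chromosome 8 (84974484 to 84978718) and Atf3 on chromosome 1 (191170296 to 191218039). Exons of Jun overlap those of the antisense gene Junos by 232 bases, and exons of Junb overlap those of Prdx2, on the other strand, by 173 bases. The others had no exon overlap on the opposite strand.

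The 5 genes that LPS changed, described next, are shown with their promoters, 250 bases before and 50 from the start RefSeq gives. That start lies inside the GENCODE span of the gene for Atf3 and Nr4a1, and upstream of it for Junb. These promoters are shown because they hold the element through which CREB and ATF factors are known to act on immediate-early genes. Capitals mark its core, TGACG, or CGTCA where it lies on the other strand. The sequences are from RefSeq (GRCm38.p6), matched by symbol for 6 of the 7 genes (Egr1 is not shown), and each is written 5′ to 3′ on the gene's strand. Their positions are chr12:85473640-85473939 on the plus strand for Fos, chr7:19309996-19310295 on the minus strand for Fosb, chr8:84978699-84978998 on the minus strand for Junb, chr1:191183284-191183583 on the minus strand for Atf3 and chr15:101266596-101266895 on the plus strand for Nr4a1.
Fos: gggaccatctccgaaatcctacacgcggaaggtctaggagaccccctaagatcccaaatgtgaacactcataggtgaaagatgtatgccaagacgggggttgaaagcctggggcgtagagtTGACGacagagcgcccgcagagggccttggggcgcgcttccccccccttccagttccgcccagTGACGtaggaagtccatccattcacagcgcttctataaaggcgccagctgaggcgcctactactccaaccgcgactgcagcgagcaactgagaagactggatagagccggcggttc
Fosb: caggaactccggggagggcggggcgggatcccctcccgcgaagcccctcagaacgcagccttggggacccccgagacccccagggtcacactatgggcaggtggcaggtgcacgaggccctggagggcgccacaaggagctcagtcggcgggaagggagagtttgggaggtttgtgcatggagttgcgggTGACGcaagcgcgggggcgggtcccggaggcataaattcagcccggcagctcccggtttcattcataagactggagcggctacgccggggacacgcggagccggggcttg
Junb: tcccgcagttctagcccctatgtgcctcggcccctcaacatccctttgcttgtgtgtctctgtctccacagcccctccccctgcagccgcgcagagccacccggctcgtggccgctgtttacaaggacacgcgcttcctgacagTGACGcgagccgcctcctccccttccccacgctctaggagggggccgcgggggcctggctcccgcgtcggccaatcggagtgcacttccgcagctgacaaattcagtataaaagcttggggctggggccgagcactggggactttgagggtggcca
Atf3: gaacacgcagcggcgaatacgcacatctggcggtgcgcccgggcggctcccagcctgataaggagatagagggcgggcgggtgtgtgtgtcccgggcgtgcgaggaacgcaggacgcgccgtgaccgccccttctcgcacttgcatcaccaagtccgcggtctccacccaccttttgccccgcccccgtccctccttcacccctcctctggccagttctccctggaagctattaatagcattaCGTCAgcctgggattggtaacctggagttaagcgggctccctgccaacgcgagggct
Nr4a1: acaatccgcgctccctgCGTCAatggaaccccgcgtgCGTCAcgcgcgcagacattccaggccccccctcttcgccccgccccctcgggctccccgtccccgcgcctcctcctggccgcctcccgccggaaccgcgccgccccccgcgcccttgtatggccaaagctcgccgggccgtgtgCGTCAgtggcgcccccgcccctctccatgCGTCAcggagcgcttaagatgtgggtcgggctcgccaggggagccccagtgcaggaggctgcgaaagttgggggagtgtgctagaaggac
TGACG was searched on both strands. It occurred 4 times in the Nr4a1 promoter, with first bases 233, 213, 69 and 40 before the start, and 2 times in that of Fos, 129 and 66 before it. Fosb, Junb and Atf3 had 1 match each, 60, 106 and 7 bases before the start, and Jun, not shown, had 0. Of 32817 mouse promoters of the same length, 20.8% held at least 1 match, 5.01% at least 2 and 0.232% at least 4. Nr4a1 was 1 of the 76 promoters with at least 4. The AP-1 element TGANTCA (held by 7.81% of promoters), the full palindrome TGACGTCA (1.79%, and overlapping TGACG wherever it occurs) and the CArG box of serum response factor (1.63%) had no match in any of the 6. The EGR element GCGNGGGCG (5.56%) had 1 match each in Fosb and Nr4a1, and TATAAA (13.6%) had 1 each in Fos and Junb. The first base of TATAAA lay 33 before the start in Fos and at the start itself in Junb. All these distances depend on the start used. Elements further than 250 bases before the start were not searched, so no match here does not mean that a gene lacks the element. A match is a run of letters, and binding was not measured.

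Fos and Junb were the most abundant of the 7 transcripts per length in saline-treated mice, and Junb, Nr4a1 and Jun in LPS-treated WT mice. KO-LPS libraries spread widely, with Fos between 26.2 and 650 RPKM (reads per kilobase of exon at the CPM scale), and KO-Saline libraries had Junb at 391 and Fos at 384 RPKM at the top, with overlapping ranges. In WT-LPS libraries Junb led at a mean of 177 RPKM and its range stood apart from that of Nr4a1, second at 88.1. Nr4a1, Jun at 72.3 and Fos at 48.1 overlapped in turn, and Atf3 (2.45), Egr1 (0.647) and Fosb (0) followed. In WT-Saline libraries the mean was 570 RPKM for Fos and 505 for Junb, with overlapping ranges, then 49.5 for Atf3 and 36.7 for Jun, which also overlapped. Nr4a1 averaged 20.0 RPKM there and Fosb 10.8, again overlapping, and Egr1 was last at 2.83. The order of Fos and Nr4a1 was thus the reverse in WT-LPS of that in WT-Saline. By total reads Junb and Fos ranked 195 and 205 of 9374 genes.

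**Figure D1:**
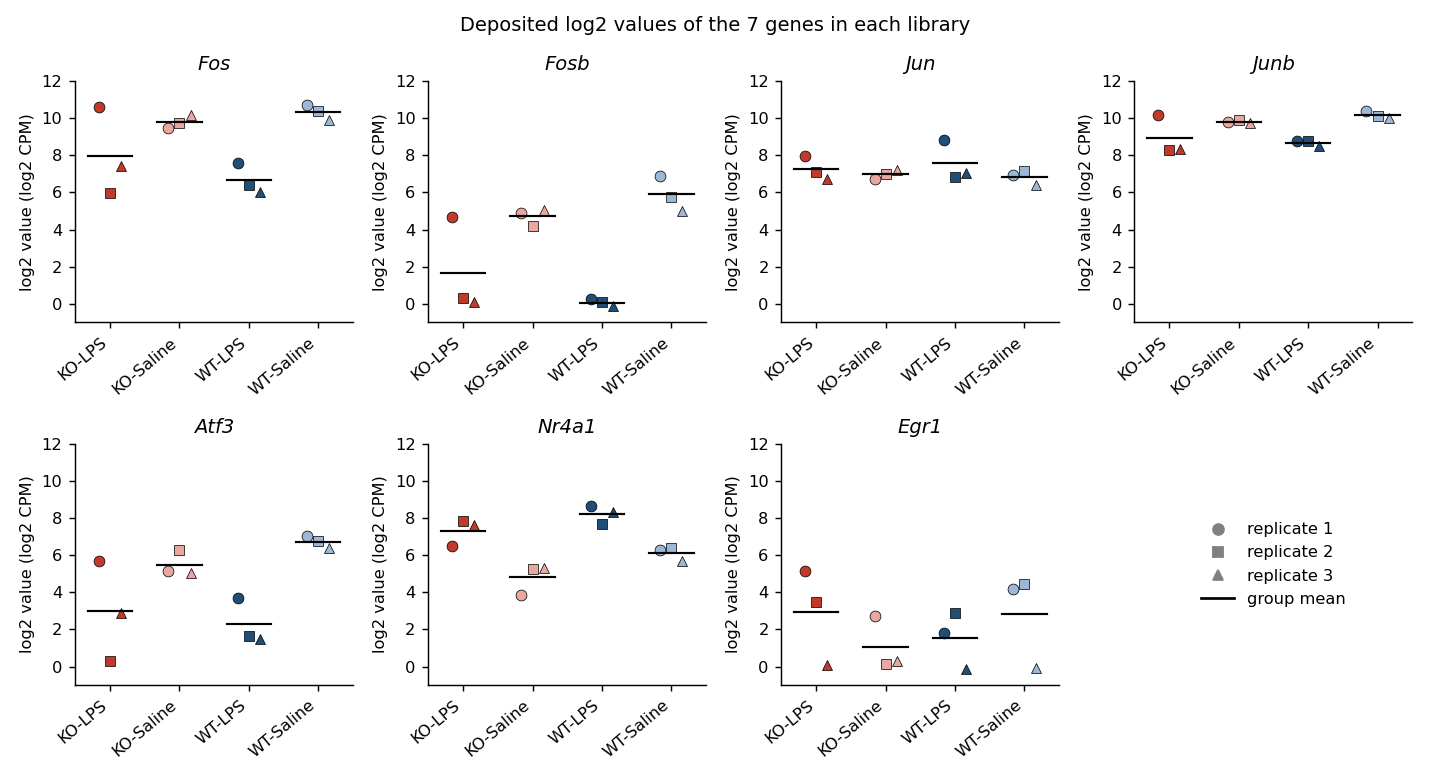
Deposited log2 CPM of each of the 7 genes (y axis) in every library, by group (x axis); symbols mark replicates 1 to 3 and bars the group means. Fos, Fosb, Junb and Atf3 lay lower in WT-LPS than in WT-Saline, Nr4a1 lay higher, and KO-LPS replicate 1 lay near the saline libraries for Fos, Junb and Atf3.

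The first comparison asked how LPS changed these genes in WT neutrophils. Fos, Fosb, Junb and Atf3 fell, Nr4a1 rose, and Jun and Egr1 did not pass the test. In all, 5 of 7 were called, 4 lower and 1 higher, where 11.7% of all genes were called, 4.96% lower and 6.72% higher (limma, Benjamini-Hochberg adjusted p under 0.05 over 9374 genes). The 2 groups did not overlap for these 5 genes, as for 30.6% of all genes. In bulk samples fewer cells of a type and less RNA per cell cannot be told apart, so rose and fell describe the library and not the cell. Log2 fold changes are given ± SE and were made with 0.5 reads added. For low genes they depend on that number and on libraries at or near 0. Such values can lie below or above the change in pooled reads.

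Fos, the AP-1 subunit that cannot pair with itself, had 192, 82.2 and 65.0 CPM in WT-LPS replicates 1 to 3, against 1702, 1349 and 970 CPM in WT-Saline. Every LPS library lay far below the lowest saline library. The log2 fold change was -3.68 ± 0.59 (limma adjusted p = 8.28e-05). Fosb, a close relative of Fos, had 0 reads in each WT-LPS library, against 49, 25 and 17 reads in WT-Saline. It was thus at least 10.2-fold lower, against a floor of 9 reads over the group (limma adjusted p = 0.000376). Atf3 had 5, 1 and 1 reads in WT-LPS, against 53, 51 and 45 in WT-Saline, and the groups stood well apart. Its log2 fold change was -4.45 ± 0.91 (limma adjusted p = 0.00124), and the pooled ratio of LPS to saline was 0.0466 with a 95% counting interval of 0.0184 to 0.0985.

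Junb, the JUN protein that often acts as a weaker activator than JUN, had 434, 437 and 355 CPM in WT-LPS, against 1341, 1120 and 1028 CPM in WT-Saline. Its libraries were close within each group and did not overlap between them, and the fall was smaller than that of Fos, at -1.51 ± 0.31 on the log2 scale (limma adjusted p = 0.00111). Prdx2, which shares exon bases with Junb, had only 3 to 26 reads per group. Nr4a1 went the other way, with 401, 207 and 320 CPM in WT-LPS, against 77.5, 82.4 and 50.3 CPM in WT-Saline. The lowest LPS library was above the highest saline library, and the log2 fold change was 2.10 ± 0.40 (limma adjusted p = 0.000644). Without limma's mean-variance trend, the WT adjusted p was 0.0590 for Fos, 0.0554 for Atf3, 0.0912 for Junb and 0.0513 for Nr4a1, so none of these 4 was called, and Fosb stayed called. The fit shares 1 spread per gene over all 4 groups. For Fos the log2 SD was 2.36 in KO-LPS, 0.36 in KO-Saline, 0.82 in WT-LPS and 0.41 in WT-Saline. All 5 WT calls held without each library in turn. The WT adjusted p in limma then ran from 4.3e-12 to 0.00194 for Fos and from 1.75e-08 to 0.0130 for Junb.

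Jun, the main partner of FOS, had 446, 114 and 132 CPM in WT-LPS, against 123, 144 and 83.8 CPM in WT-Saline. A single LPS library, replicate 1, was high, and the other two lay within the saline range. The log2 difference of 0.72 had a 95% interval of -0.08 to 1.52 (limma adjusted p = 0.269). Egr1, on the plus strand of chromosome 18 (34859823 to 34864984), was near the floor, with 1, 3 and 0 reads in WT-LPS and 7, 10 and 0 in WT-Saline, and the groups overlapped (limma adjusted p = 0.612). The members' share of all reads was 0.147%, 0.0842% and 0.0896% in WT-LPS, against 0.357%, 0.297% and 0.229% in WT-Saline.

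The same question in KO libraries gave a split answer, because KO-LPS replicate 1 lay with the saline libraries for most of these genes. That library was singled out by its place near saline. Larger changes, smaller SEs and more calls without it follow at least in part from that choice, and are no separate test of the response. Of the 7 only Nr4a1 was called, and it was higher, where 3.35% of all genes were called, 1.99% higher and 1.35% lower. Nr4a1 had 88.0, 229 and 193 CPM in KO-LPS, against 13.1, 36.9 and 38.9 CPM in KO-Saline. All LPS libraries were above all saline libraries, as for 9.67% of all genes (6.89% were lower in this way, 16.6% in either direction), and the log2 fold change was 2.50 ± 0.40 (limma adjusted p = 0.000845, and 0.0853 without the mean-variance trend).

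Fos had 1529, 61.7 and 169 CPM in KO-LPS, against 701, 864 and 1146 CPM in KO-Saline. Replicate 1 was higher than every KO-Saline library and the other two were lower than all of them. The log2 fold change was -1.80 ± 0.59 with all libraries (limma adjusted p = 0.0969) and -3.10 ± 0.33 without replicate 1 (limma adjusted p = 5.3e-09). Junb behaved alike, with 1134, 313 and 324 CPM in KO-LPS, against 900, 955 and 844 CPM in KO-Saline. Its log2 fold change was -0.88 ± 0.31 with all libraries (limma adjusted p = 0.117) and -1.49 ± 0.20 without replicate 1 (limma adjusted p = 4.15e-07).

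Atf3 had 19, 0 and 3 reads in KO-LPS, against 13, 35 and 13 in KO-Saline, and Fosb had 9, 0 and 0 reads in KO-LPS, against 11, 8 and 13 in KO-Saline. In both genes the reads in KO-LPS were mostly or wholly those of replicate 1. Neither was called with all libraries (limma adjusted p = 0.138 for Atf3 and 0.123 for Fosb), and both were called lower without replicate 1 (limma adjusted p = 0.0013 and 0.00301). Leaving it out raised the share of all genes called in KO to 11.5%, with 5.97% higher and 5.5% lower, and 5 of the 7 genes were then called, 4 of them lower. The lone pair of KO-LPS libraries is assumed to vary as the other groups do.

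Jun had 251, 138 and 105 CPM in KO-LPS, against 105, 126 and 148 CPM in KO-Saline, and the groups overlapped (log2 difference 0.30 ± 0.39, limma adjusted p = 0.763). Egr1 had 13, 4 and 0 reads in KO-LPS, against 2, 0 and 0 in KO-Saline, with most of the reads in replicate 1 (pooled ratio 8.54, 95% counting interval 2.03 to 76.2, limma adjusted p = 0.506). Neither gene was called without replicate 1, and the Jun difference was then -0.06.

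**Figure D2:**
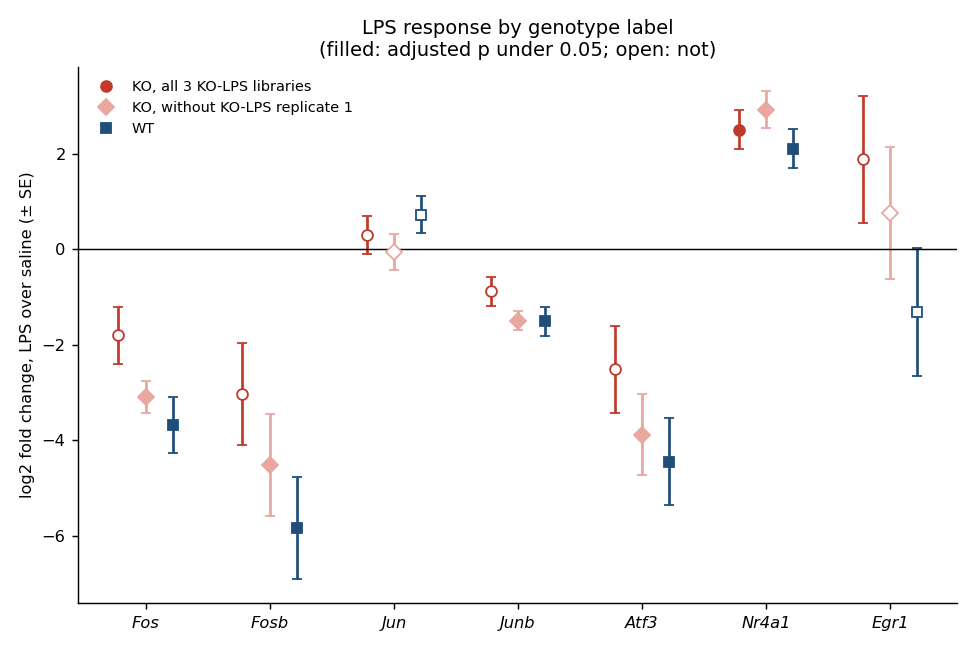
Log2 fold change of LPS over saline (y axis, ± SE) for each of the 7 genes (x axis) in KO libraries, in KO libraries without KO-LPS replicate 1, and in WT libraries; filled symbols passed the adjusted p of 0.05. Without that library the KO values of Fos, Fosb, Junb and Atf3 moved down towards those of WT, and Nr4a1 was positive in all 3.

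Averaged over both genotypes, 6 LPS against 6 saline libraries, the same 5 genes were called, where 16.9% of all genes were called. The log2 fold changes were -2.74 ± 0.42 for Fos (limma adjusted p = 2.37e-05), -4.43 ± 0.75 for Fosb (9.49e-05), -1.19 ± 0.22 for Junb (0.000195), -3.48 ± 0.64 for Atf3 (0.000263) and 2.30 ± 0.29 for Nr4a1 (1.48e-06). The Fosb value depends on the reads added, since most LPS libraries were at 0. Nr4a1 was the only one of the 7 whose 6 LPS libraries all lay above its 6 saline libraries, which held for 3.15% of all genes, and in either direction for 4.72%. For Fos, Fosb, Junb and Atf3, KO-LPS replicate 1 overlapped the saline libraries. Without that library the averaged log2 fold changes were -3.39 for Fos, -5.17 for Fosb, -1.50 for Junb, -4.16 for Atf3 and 2.51 for Nr4a1. These 5 calls held without each library in turn. The plot of each library's place on the LPS response shows the same library at an intermediate place.

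**Figure D3:**
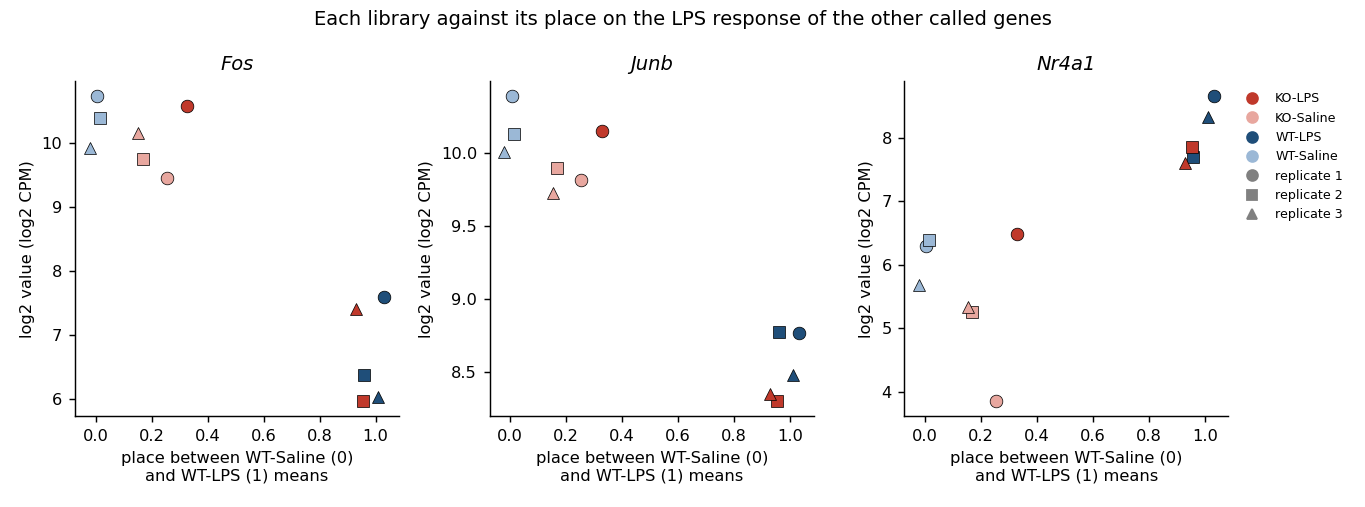
Deposited log2 CPM of Fos, Junb and Nr4a1 (y axes) in each library against its place on the LPS response of the 1090 other genes called in WT (x axis, 1 at the WT-LPS mean and 0 at the WT-Saline mean); colours mark groups and symbols replicates. KO-LPS replicate 1, at 0.33, had saline levels of Fos and Junb and a level of Nr4a1 between the saline and the other LPS libraries.

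Markers of cell state and of other cell types moved with LPS too. Of 9 immature neutrophil granule genes 6 were measured, and their summed level was 1387 to 13101 CPM in KO-LPS, 779 to 1528 in KO-Saline, 9315 to 13983 in WT-LPS and 395 to 626 in WT-Saline, with KO-LPS replicate 1 at the low end of its group. Of 8 dendritic cell markers 6 were measured, at 22.2 to 187 CPM in KO-LPS, 186 to 229 in KO-Saline, 33.5 to 78.2 in WT-LPS and 254 to 364 in WT-Saline. Averaged over genotypes only Clec9a and Itgax of these 6 were called, both lower, where 7.03% of all genes were called lower. The other 4 did not pass the test. Clec9a was at 0 reads in WT-LPS. Of 6 platelet markers 3 were measured, at 217 to 496 CPM in KO-LPS, 651 to 837 in KO-Saline, 161 to 255 in WT-LPS and 523 to 779 in WT-Saline, and Clec1b was at 0 reads in WT-LPS. Most of this sum was Gp1ba, with means of 297 CPM in KO-LPS, 699 in KO-Saline, 198 in WT-LPS and 619 in WT-Saline. Pf4, Ppbp and Itga2b were not measured. The 14 mature neutrophil markers, all measured, summed to 22489 to 23633 CPM in KO-LPS, 20753 to 21050 in KO-Saline, 20177 to 23070 in WT-LPS and 15458 to 20417 in WT-Saline. Averaged over genotypes 8 of these 14 rose and 4 fell, where 9.86% of all genes were called higher and 7.03% lower. Among them Ly6g rose by 1.83 ± 0.34, and Cxcr4 fell by 1.91 on the log2 scale. Csf3r averaged 2817 CPM in KO-LPS, 5510 in KO-Saline, 1772 in WT-LPS and 5359 in WT-Saline. Monocyte markers (5 of 10 measured) summed to 349 to 555 CPM in KO-LPS, 391 to 462 in KO-Saline, 504 to 645 in WT-LPS and 359 to 477 in WT-Saline. Of these 5, Ly6c2 rose by 2.43 ± 0.32, and Apoe and Csf1r fell by 2.98 and 0.73 on the log2 scale, beside the same shares of all genes. B cell (1 of 5), T and NK cell (2 of 7), erythroid (1 of 5) and eosinophil, basophil and mast cell (1 of 7) markers were sparsely measured, and of these Cd79a of the B cell list rose by 2.39 ± 0.39 on the log2 scale (limma adjusted p = 4.9e-05). The part of these shifts in the LPS results for the 7 genes and the related lists was not tested.

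The next comparison asked whether the genotype label went with different levels. In saline none of the 7 genes was called, where 0.0107% of all genes, 1 gene, was called. For 4 of the 7 (Fosb, Junb, Atf3 and Nr4a1) all KO-Saline libraries nevertheless lay below all WT-Saline libraries, where 6.28% of all genes were so ordered. Nr4a1 stood furthest apart, at 13.1, 36.9 and 38.9 CPM in KO-Saline, against 77.5, 82.4 and 50.3 CPM in WT-Saline. Its log2 difference of -1.31 ± 0.40 had a 95% interval of -2.14 to -0.48 and did not pass the correction over all genes (limma adjusted p = 0.471). For Atf3 the difference was -1.25 ± 0.91 with an interval of -3.11 to 0.62, and for Fosb, whose nearest libraries of the groups differed by less than 1 CPM, it was -1.18 ± 1.07 with an interval of -3.36 to 1.01. For Junb the interval ran from -0.99 to 0.26. Fos overlapped, with 701, 864 and 1146 CPM in KO-Saline and 1702, 1349 and 970 CPM in WT-Saline, and its interval was -1.77 to 0.65. Jun, at -0.67 to 0.93, also overlapped, as did Egr1, whose pooled ratio of KO to WT was 0.134 with a 95% counting interval of 0.015 to 0.563. In WT-Saline, replicate 1 was the highest and replicate 3 the lowest for Fos, Fosb, Junb and Atf3 alike.

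After LPS none of the 7 genes was called between KO and WT either, where 0.0% of all genes were called by limma, 471 genes having an unadjusted p under 0.05 and 1 being called with voom weights. Fos was higher in KO-LPS by 1.32 ± 0.59 on the log2 scale, with a 95% interval of 0.10 to 2.53 and an adjusted p of 0.949 in limma. Without KO-LPS replicate 1 the Fos difference was 0.02. Nr4a1 was lower in KO-LPS by -0.91 ± 0.40 on the log2 scale (interval -1.74 to -0.08, limma adjusted p = 0.949), and by -0.50 without that replicate. For Junb the interval was -0.37 to 0.88, and the log2 difference of 0.26 became -0.35 without that replicate. For Atf3 the interval was -1.18 to 2.56, and the difference of 0.69 became -0.68. Neither gene thus had a settled direction. For Jun, at -0.29 (interval -1.09 to 0.51), the value was -0.64 without that replicate and 0.33 without WT-LPS replicate 1. For Egr1, at 1.38 (interval -1.34 to 4.10), it was 0.25. Fosb was at or under the floor of 9 reads in both groups. The groups overlapped for each of the 7 genes, where 9.79% of all genes were apart, 4.32% with KO higher and 5.47% with KO lower.

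Whether the LPS response itself differed between genotypes was tested as the interaction, the response in KO minus that in WT. No gene of the 7 and none of the 9374 was called by limma, 560 having an unadjusted p under 0.05 and 2 being called with voom weights, none of them of the 7. With no interaction at all, a share of 0.05 of the 9374 genes would be expected to have such an unadjusted p. The interaction of Fos was 1.88 ± 0.84 (95% interval 0.16 to 3.59, limma adjusted p = 0.819), and without KO-LPS replicate 1 it was 0.58 ± 0.44 (limma adjusted p = 0.893). Leaving out that library gave calls for 0.032% of all genes, 0.0213% higher, and for none of the 7. For Junb the interval was -0.26 to 1.51 and the value 0.01 without that replicate. For Nr4a1 the interval was -0.77 to 1.57, and the value of 0.40 was 0.81 without that replicate and -0.08 without KO-Saline replicate 1. The interval of Atf3, -0.71 to 4.58, was wide, and its value of 1.93 was 0.57 without KO-LPS replicate 1, so that neither equal nor unequal responses could be shown for this low gene. For Fosb, at 0 in WT-LPS, the fitted value depends on the reads added, at 2.79 with all libraries and 1.31 without that replicate, and neither passed the test (limma adjusted p = 0.867 and 0.932). The response of Jun differed by -0.42 (interval -1.56 to 0.71), by -0.77 without KO-LPS replicate 1 and by 0.19 without WT-LPS replicate 1, and that of Egr1, near the floor, did not pass the test (limma adjusted p = 0.871, and 0.904 without KO-LPS replicate 1).

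The make-up of the FOS and JUN transcripts per length was set out over 6 family genes, the 4 above with Fosl2 and Jund. Fos made up 5.47% ± 2.58 of their summed RPKM in WT-LPS, against 27.0% ± 3.94 in WT-Saline (SD, n = 3 each). Jund, the most constantly expressed JUN gene in many tissues, made up 60.0% ± 5.82 in WT-LPS and 41.9% ± 4.27 in WT-Saline, and Junb 21.1% and 24.3%. The larger share of Jund was not a higher level, since it averaged 503 RPKM in WT-LPS, against 864 in WT-Saline. The Fos ranges did not overlap between these groups. In KO-LPS the share of Fos ran from 4.0% to 30.4%, the highest value being that of replicate 1, against 16.7% to 27.4% in KO-Saline. Exons of Jund overlap a gene on the opposite strand.

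**Figure D4:**
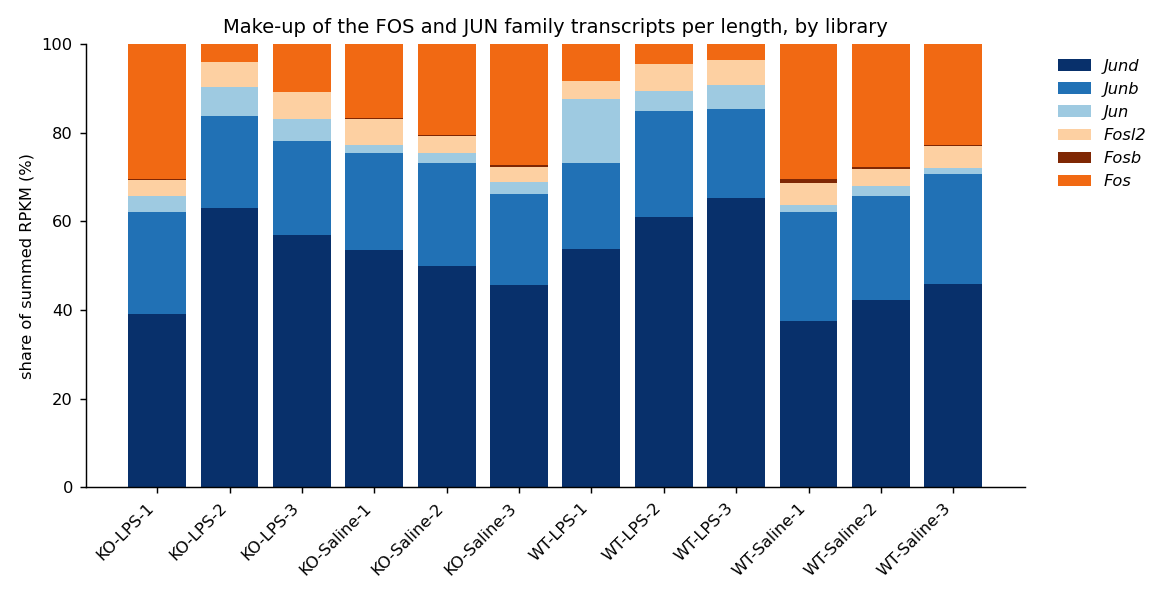
Share of each gene in the summed RPKM of Fos, Fosb, Fosl2, Jun, Junb and Jund (y axis, %) in every library (x axis). The Fos share in WT-LPS averaged 5.47%, against 27.0% in WT-Saline, and KO-LPS replicate 1 had the highest Fos share of its group, 30.4%.

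Related genes were read out of the same fit as lists. Of 14 further AP-1 family bZIP genes 9 were measured, and averaged over genotypes 2 rose and 2 fell, with a list median of -0.41 on the log2 scale against 0.09 for all genes. For these and the following lists, 9.86% of all genes rose and 7.03% fell in the same comparison. Batf, which pairs with JUN proteins but lacks a transactivation domain, rose by 2.07 ± 0.50 (limma adjusted p = 0.00393), with 40.03 ± 12.5 CPM in KO-LPS, 11.3 ± 3.03 in KO-Saline, 46.0 ± 17.3 in WT-LPS and 9.95 ± 9.48 in WT-Saline (SD, n = 3). Mafg, a small MAF protein, rose by 1.05 ± 0.22, while Fosl2 and Jund fell by 0.88 and 0.79 on the log2 scale. Of 15 CREB, ATF and stress bZIP genes, all measured, 2 rose and 1 fell, near those shares, with a median of 0.11. Cebpe, a granulocyte maturation factor, rose by 2.09 ± 0.60, Xbp1, of the unfolded protein response, rose by 0.83 ± 0.20, and Cebpd fell by 1.10.

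Of 31 other immediate-early genes 24 were measured, and 8 fell while 2 rose, with a list median of -0.51. The share that fell, 8 of 24, stood beside 7.03% of all genes, and the share that rose, 2 of 24, beside 9.86%. Btg1, an antiproliferative gene, had 727 ± 647 CPM in KO-LPS, 1352 ± 78.3 in KO-Saline, 431 ± 79.1 in WT-LPS and 1475 ± 124 in WT-Saline (SD, n = 3), and its averaged log2 fold change was -1.52 ± 0.24 (limma adjusted p = 2.73e-05). Gadd45a, a growth arrest gene, fell by 1.27 on that scale. Dusp2, a phosphatase that turns off MAP kinases, rose by 2.30 ± 0.65 and Zfp36l1, which encodes an RNA-binding protein, by 1.26 ± 0.17. Dusp2 was near the floor, with 5, 16 and 19 reads in KO-LPS, against 1, 0 and 0 in KO-Saline. It was called in KO at 4.08 ± 0.92 (limma adjusted p = 0.0110). In WT it was not called, with 16, 5 and 7 reads in WT-LPS, against 7, 8 and 3 in WT-Saline. The 6 others that fell were Ier5, Csrnp1, Zfp36, Dusp1, Zfp36l2 and Btg2, of which Zfp36 encodes a protein that speeds the decay of cytokine mRNA.

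Upstream, 24 of 25 MAP kinase genes were measured, of which 5 rose and 2 fell, beside 9.86% higher and 7.03% lower among all genes, with a median of -0.08. Rps6ka1, a ribosomal S6 kinase, rose by 1.40 ± 0.26, Mapk7 by 2.41 ± 0.79 and Rps6ka4 by 1.56 ± 0.51, and Map3k5, a stress-activated kinase, fell by 1.33. Of 8 genes of serum response factor and its cofactors 6 were measured and 1 fell, Elk3, by 0.72 on the log2 scale. Of 11 heat shock genes 9 were measured and 1 fell, Hspd1, by 1.31. Neither list had a member that rose. In WT alone Hspd1 was called at -3.05 ± 0.64 (limma adjusted p = 0.00158), with 4, 6 and 15 reads in WT-LPS, against 91, 33 and 81 in WT-Saline. It was not called in KO, with 12, 3 and 9 reads in KO-LPS, against 3, 7 and 6 in KO-Saline.

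Downstream, 18 genes known as targets of AP-1, EGR1 or NR4A factors were listed and 16 measured, of which 6 rose and 1 fell, beside 9.86% higher and 7.03% lower among all genes, with a median of 0.60. The cytokine gene Ccl3 had 180 ± 122 CPM in KO-LPS, 68.1 ± 14.5 in KO-Saline, 361 ± 136 in WT-LPS and 82.0 ± 44.4 in WT-Saline (SD, n = 3), a rise of 1.69 ± 0.28 on the log2 scale (limma adjusted p = 7.93e-05). Cxcl2, a neutrophil chemoattractant, rose by 3.02 ± 0.75 and Tnf by 2.43 ± 0.74. Both had few reads in saline, so these values depend on the reads added. Cxcl2 had 15, 0 and 9 reads in KO-Saline and 10, 0 and 1 in WT-Saline. Tnf had 2, 0 and 8 reads in KO-Saline and 7, 9 and 0 in WT-Saline. Il1b, which encodes interleukin-1β and overlaps the antisense gene Il1bos, fell by 1.62. In WT alone Ptgs2, which encodes cyclooxygenase 2, had 9, 0 and 2 reads in WT-LPS, against 42, 68 and 11 in WT-Saline, and was called lower at -3.83 ± 1.16 (limma adjusted p = 0.0277). Many of these genes are known to have other regulators too.

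**Figure D5:**
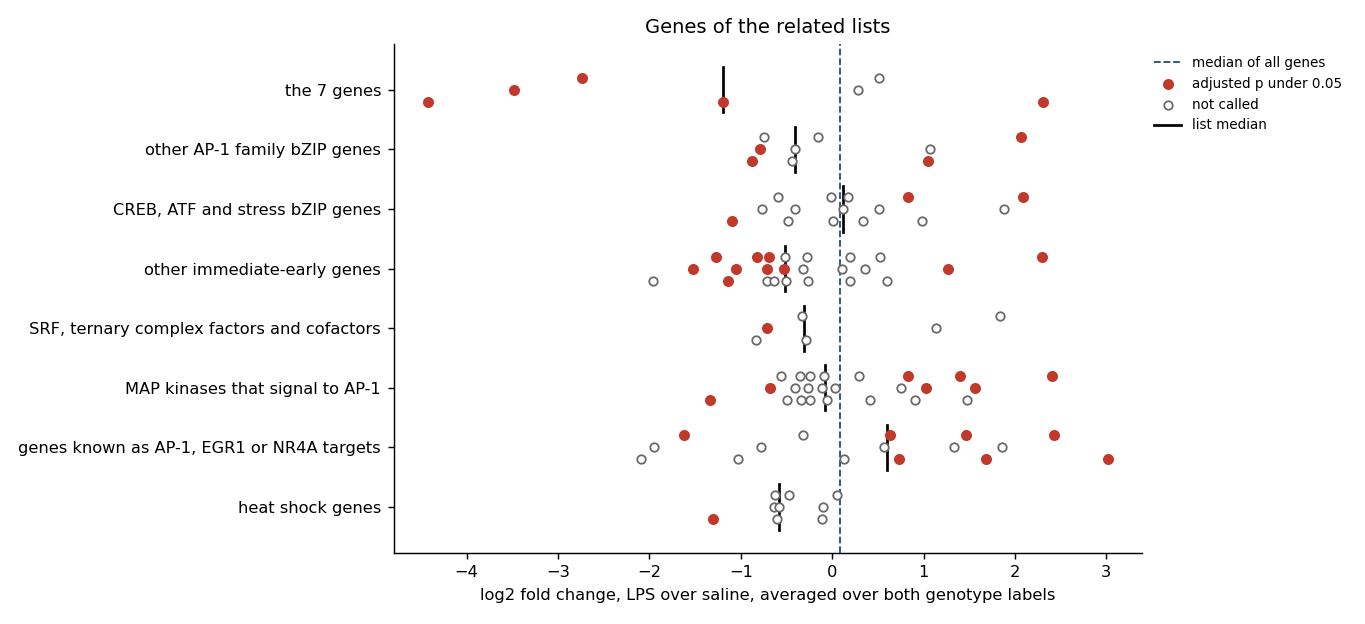
Log2 fold change of LPS over saline averaged over both genotype labels (x axis) for each measured gene of the 7 and of 7 related lists (rows); filled points passed the adjusted p of 0.05, short bars are list medians and the dashed line the median of all genes, 0.09. Other immediate-early genes had a median of -0.51, with 8 lower and 2 higher calls.

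Not all of these calls were stable. Averaged over genotypes, 22 of 33 list calls held without each library in turn, and 13 of 33 under every other alternative. Among the genes named, Cebpe was lost without WT-LPS replicate 3 and Dusp2 without WT-LPS replicate 1. Tnf was lost without any 1 of 3 libraries (WT-LPS replicate 1, WT-Saline replicate 3 or KO-Saline replicate 2), Dusp1 without any 1 of 5, and Mapk7, Rps6ka4 and Hspd1 without any 1 of 8 and Btg2 without any 1 of 9. The WT call of Ptgs2 was lost without any 1 of 4 libraries. The WT call of Hspd1 held without each library in turn and under every other alternative. Under those other alternatives the averaged log2 fold change ran from 2.19 to 3.09 for Cxcl2, from 1.71 to 2.47 for Tnf and from 1.47 to 2.43 for Mapk7. Without the mean-variance trend more of the named calls were lost. Fosl2 and Jund then had adjusted p-values of 0.0593 and 0.0612 in limma, and Il1b, Cxcl2 and Tnf of 0.0517, 0.0799 and 0.101. Elk3, the single call of its list, had 0.105. All 6 further immediate-early genes that fell lost their call, with 0.0868 for Ier5, 0.0746 for Csrnp1, 0.115 for Zfp36, 0.183 for Dusp1, 0.0831 for Zfp36l2 and 0.160 for Btg2. The averaged calls of Mapk7, Rps6ka4 and Hspd1 were lost too.

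Within genotypes the lists gave fewer calls. In KO the other immediate-early genes had 2 rises (Dusp2 and Zfp36l1) and 2 falls (Ier5 and Btg1), and in WT 1 rise (Zfp36l1) and 7 falls, among them Csrnp1 at -1.90 ± 0.38 and Btg1 at -1.78 ± 0.33, which had adjusted p-values of 0.0547 and 0.0785 without limma's mean-variance trend. Of all genes, 1.99% rose and 1.35% fell in KO, and 6.72% rose and 4.96% fell in WT. The further AP-1 genes had 1 fall in KO, Jund, at an adjusted p of 0.0499 in limma, and 2 rises and 2 falls in WT. The target list had no call in KO and 5 rises and 2 falls in WT. MAP kinase genes had no call in KO and 3 rises and 1 fall in WT. KO-LPS replicate 1 is among the libraries of each KO count, and none of the 6 list calls in KO held without each library in turn or under every other alternative. In WT 11 of 26 list calls held without each library in turn and 4 of 26 under every other alternative.

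For each of the 5 called genes, the 3 most similar genes were found by the root mean square (RMS) difference of centred log2 values over the 12 libraries, among 4695 genes of at least median abundance. Nr4a1 was closest to Plagl2, which encodes a zinc finger protein, with an RMS difference of 0.34 against a spread of 1.38 for Nr4a1 itself, and next to Gm16731 (0.53) and Myo18a (0.57). Fos was closest to Il1bos (0.56), Jaml (0.57) and Trub2 (0.59), with its own spread at 1.79. Atf3 was closest to Fos (0.67), then Defb39 (0.72) and Clec7a, the β-glucan receptor dectin-1 (0.75). Fosb was closest to Rasip1 (0.82), Cd101 (0.88) and Clec7a (0.92), and Junb to Abhd1 (0.19), Paqr3 (0.20) and Epha1 (0.21). Exons of Il1bos, Jaml, Trub2, Rasip1, Abhd1, Paqr3, Epha1 and Gm16731 overlap those of a gene on the opposite strand.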

How the data were processed

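The authors deposited normalized log2 expression values for 9374 genes in 12 libraries, with no further statement of unit per the file headers. The values were found to be log2 CPM with 0.5 reads added, since whole reads came back within 0.0001 for 100.0% of them. Per the labels' protocols, RNA was extracted with a Qiagen miRNeasy micro kit and libraries with a Tecan Universal Plus Total RNA kit. Per the submitters' processing notes the build was mm10; the sources used here do not give the aligner, counter, strand setting or gene filter.

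Reads were recovered for depth and display, and intervals on reads (95%, exact) and floors (3 reads) cover counting error only, since PCR copies of a molecule, with no molecular identifiers, count as separate reads. The deposited log2 values were tested with limma 3.58.1 (R 4.3.3), fitting 1 mean for each of the 4 groups to all 12 libraries, with a mean-variance trend, two-sided, with Benjamini-Hochberg adjustment over 9374 genes and a threshold of 0.05. The method was tested on simulated data. RPKM was computed from CPM and merged exon lengths of GENCODE M21. In every comparison LPS is set over saline and KO over WT.

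Samples were grouped by their labels. The 7 genes, the related lists and the marker lists were chosen with earlier results of these data known. Text names all 7, the up to 4 called genes of each list with the largest change per LPS comparison, genes that overlap the 7, the 3 most similar genes, and Hmgb1; the 6 further immediate-early genes that fell were named after their values were seen. Alternatives were no trend, voom weights, recomputed scaling, a filter at a mean of 10 reads, 2 reads added, the compared groups alone, the replicate number as a block, each library left out and, chosen after seeing the data, quantile normalization.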

Additional observations from a re-analysis of the deposited data

How the results depend on the processing

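For the 7 genes, 799 of 820 values kept their direction and their side of the threshold. No called value turned its sign, and 10 values of uncalled differences did, each when a single library was left out. Without single libraries, the log2 difference ran from -0.0551 to 0.57 for Jun in KO, from -0.46 to 0.98 for Egr1 averaged over genotypes and from -0.0883 to 0.30 for Jun between genotypes in saline. Between genotypes after LPS it ran from -0.68 to 2.02 for Atf3, from -0.65 to 0.33 for Jun and from -0.35 to 0.57 for Junb, and the interaction ran from -0.0806 to 0.81 for Nr4a1 and from -0.79 to 0.19 for Jun. The 5 calls averaged over both genotypes held under every alternative run. Without the mean-variance trend, limma's adjusted p in WT was 0.0554 for Atf3, 0.0590 for Fos, 0.0513 for Nr4a1 and 0.0912 for Junb, and in KO it was 0.0853 for Nr4a1. The cause was not tested. In KO, Fos was called with voom weights (adjusted p = 0.0216) and with the replicate block (0.0394). Of the list genes' calls, 22 of 33 averaged over genotypes, 11 of 26 in WT and 0 of 6 in KO held without each library in turn, and 13 of 33, 4 of 26 and 0 of 6 held under every other alternative. The total number of genes called was 1095 in WT (363 without the trend, 734 to 1427 without single libraries), 314 in KO (16 without the trend, 82 with the compared groups alone, 32 to 1076 without single libraries, the most without KO-LPS replicate 1 and the fewest without KO-LPS replicate 2) and 1583 averaged (944 without the trend). Between genotypes it was 1 in saline (0 without the trend, 2 with voom weights, 4 with 2 reads added, 22 with the groups alone, 0 to 31 without single libraries), 0 after LPS (1 with voom weights, 0 to 2) and 0 for the interaction (2 with voom weights, 0 to 7). Same-numbered libraries deviated with correlations of -0.128 to 0.0526, so the numbers share only a name. With the replicate block the counts were 1086, 336, 1563, 1, 0 and 0. Quantile normalization shifted the median of all genes by up to -0.108 on the log2 scale, in KO, and changed no call of the 7 genes. A planned count model was not run, as the deposited values are log2 values. The averaged response and the interaction use all 4 groups, so the compared groups alone gave no value for them. Depth limited Egr1, Fosb and Atf3 most.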
